A study of Homo sapiens with 12 samples.

Results

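A group of 8 noncoding genes was followed here through RNA-seq of HCT116 and RPE-1 cells. They were chosen by name: LNCTAM34A, MIR34AHG, PURPL, TP53TG1, LINC-PINT and PVT1 as genes tied to the tumour suppressor p53, with NEAT1 and MALAT1 added. All 8 were found among the 25914 genes listed, and each is entered there as a long noncoding RNA (lncRNA), 1 of 5168 such genes. HCT116 is a colon cancer line and RPE-1 a retinal epithelial line immortalized with hTERT, and the labels call both wild-type. Each line received 10 µM Nutlin-3a or the solvent DMSO for 24 h, in 3 libraries per line and treatment and 12 in all. Nutlin-3a keeps the ubiquitin ligase MDM2 off p53, so that p53 accumulates. The measurement described is the authors' base mean, which is 1 mean normalized read count per gene over pooled libraries. It was the same in the tables of both lines for all 25914 genes, and it therefore separates neither cell lines nor treatments. It has no replicate error, so no order of levels given below was tested, and how the members answered Nutlin-3a was not analysed here. The link of these genes to p53 is background and cannot be checked on a pooled mean.

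p53 is a transcription factor that binds a DNA element made of a pair of 10-base consensus sequences, and it switches on genes of cell-cycle arrest, apoptosis and repair. Besides messenger RNAs, it induces noncoding transcripts. Some of these are hosts of microRNAs, short RNAs that silence messages through a seed at bases 2 to 8, and others feed back on p53 or act on chromatin. MALAT1 and NEAT1 are nuclear RNAs found in many cell types. MALAT1 gathers in nuclear speckles, and NEAT1 is the scaffold of paraspeckles.

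The 8 members spanned a wide range of pooled levels, from a base mean of 173.9 for LINC-PINT to 112289 for MALAT1. Their median was 659, against 11.8 for all listed lncRNA genes, 651 for the 15758 protein-coding genes and 149.8 for all listed genes. Per kilobase (kb) of annotated exon, which allows for the length of the RNA, the members' median was 87.3, against 8.68 for lncRNA genes, 120.3 for protein-coding genes and 51.3 for all listed genes. The medians of members and protein-coding genes thus lay close together by base mean. Per kb of exon union the members' median was the lower. With the longest transcript as the length it was 164.6, and no protein-coding median on that length is given here. By base mean every member lay above the lncRNA median, with the lowest, LNCTAM34A and LINC-PINT, both 14.7 times above it. The members were picked as well-known genes, so this distance describes them and is no test.

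**Figure D1:**
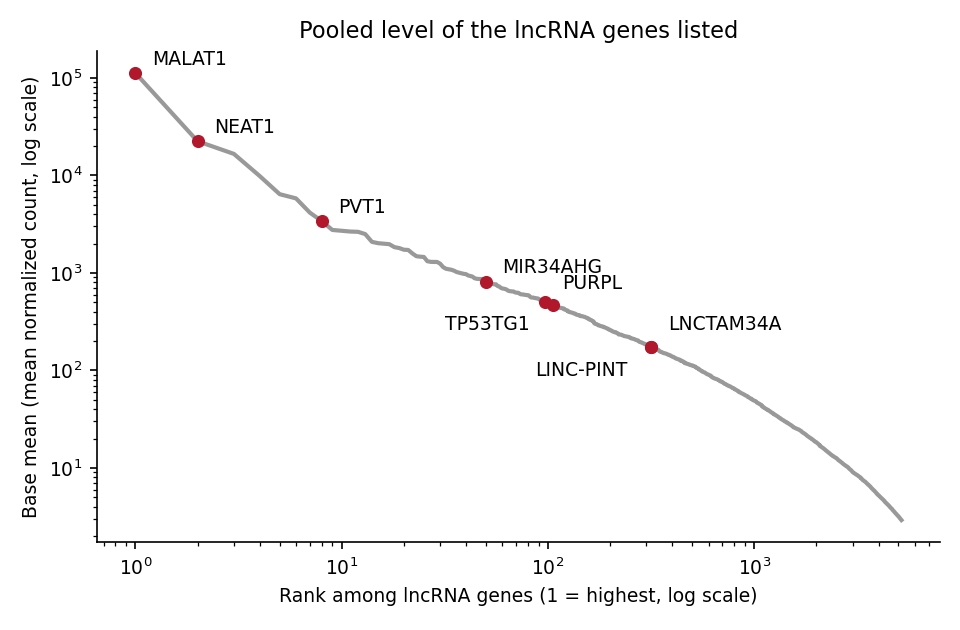
Base mean (mean normalized count over pooled libraries) of the 5168 listed lncRNA genes against their rank, both on log scales, with the 8 members as red points. MALAT1 and NEAT1 hold ranks 1 and 2, PVT1 rank 8, and the lowest members LNCTAM34A and LINC-PINT ranks 316 and 317.

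MALAT1 (ENSG00000251562) had the highest base mean of all lncRNA genes, 112289, and 6 of all listed genes lay above it. It lies on the plus strand of chromosome 11 of GRCh38, from 65497640 to 65508073. MALAT1 alone made up 25.1% of the summed base means of the lncRNA genes and 0.374% of those of all listed genes. NEAT1 (ENSG00000245532), upstream on the same strand from 65422774 to 65445540, was second among lncRNA genes with 22459 and rank 100 among all genes. Its share of the lncRNA sum was 5.02%. The base mean of MALAT1 was 5.0 times that of NEAT1. Longer RNAs collect more reads, so levels of different genes are compared per kb of exon. The union of annotated exons is 10.434 kb in MALAT1 and 22.767 kb in NEAT1. Per kb, MALAT1 stood at 10762 and NEAT1 at 986, which is a ratio of 10.9. MALAT1 was first among lncRNA genes on that scale too, and NEAT1 was seventh. The longest of the 9 annotated NEAT1 transcripts, with 22.743 kb, makes up nearly all of the NEAT1 union. Which transcript gave the reads was not measured, and per kb of a shorter one NEAT1 would stand higher.

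The genes of the paraspeckle proteins NONO, SFPQ and PSPC1, which bind NEAT1, had base means per kb of 1222, 1593 and 365. These and all later values for genes of proteins are RNA counts, and no protein was measured. By the exon union NEAT1 thus lay below NONO and SFPQ and above PSPC1, an order that depends on the length taken for NEAT1. The splicing factor SRSF1, which interacts with MALAT1 in speckles, had 390 per kb. On the strand opposite to MALAT1, the listed lncRNA gene ENSG00000270117 starts 977 bp downstream of the MALAT1 gene start and had a base mean of 3.70.

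PVT1 (ENSG00000249859), a host gene downstream of the oncogene MYC, had a base mean of 3403. It was rank 8 among lncRNA genes and above 92.2% of all listed genes. Its annotation on the plus strand of chromosome 8, from 127794526 to 128187101, holds 190 transcripts with 132 distinct starts. These add up to an exon union of 25.431 kb, while the longest single transcript has 2.45 kb. The level per length of PVT1 hence depended on this choice, with 133.8 per kb of exon union and 1389 per kb of the longest transcript. By the union PVT1 lay below NEAT1, and by the longest transcript above it. MYC itself, a transcription factor that drives growth, had 1481 per kb of exon union. The PVT1 gene spans the microRNA genes MIR1204 to MIR1208 on its own strand.

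**Figure D2:**
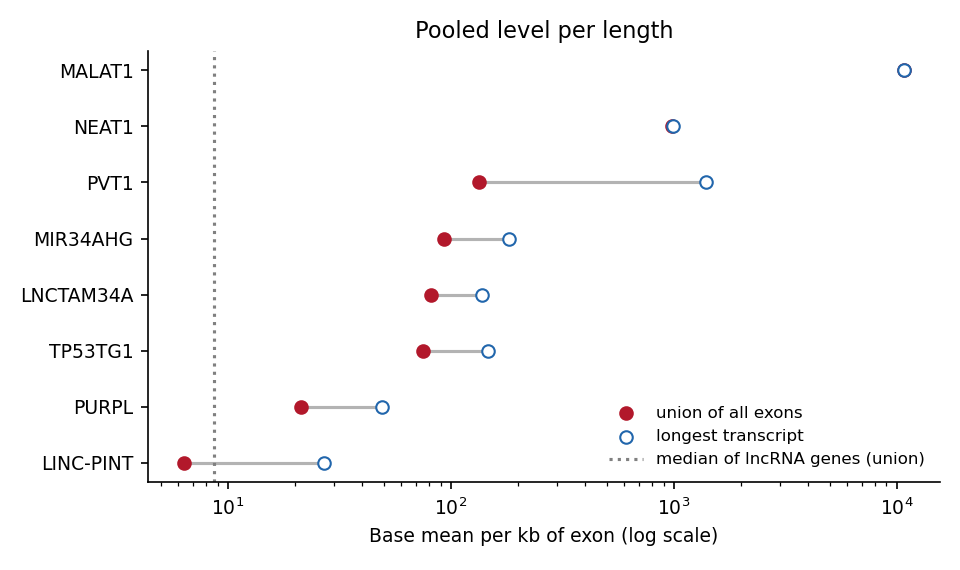
Base mean per kb of exon for the 8 members on a log scale, with length taken as the union of all annotated exons (red) or as the longest transcript (open blue), and the median of lncRNA genes as a dotted line (8.68 per kb of exon union). PVT1 moves most between the length measures, from 133.8 to 1389, and LINC-PINT lies below the dotted line by the union, at 6.37. That value would be too low if separately counted lncRNA genes belong to LINC-PINT, which was not tested.

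MIR34AHG and LNCTAM34A share a locus on chromosome 1. MIR34AHG (ENSG00000228526) is the host gene of microRNA miR-34a, a p53-induced microRNA that restrains cell-cycle genes, and runs on the minus strand from 9148011 to 9198906. LNCTAM34A (ENSG00000234546), named as a transcriptional activator of miR-34a, runs the other way from 9182004 to 9196284. MIR34AHG had a base mean of 813, rank 50 among lncRNA genes. LNCTAM34A had 174.3, rank 316. The count of MIR34AHG was 4.67 times that of LNCTAM34A, but its exon union is also longer, 8.705 kb against 2.145 kb. Per kb of exon union both were close, with 93.4 for MIR34AHG and 81.2 for LNCTAM34A. The ratio was 1.15 per kb of union, and per kb of the longest transcript the values were 182.5 and 137.8. Whether such a gap exceeds the spread between libraries cannot be told from a pooled mean.

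The transcripts of this pair start towards each other. The closest pair of annotated starts is 178 bp apart in GENCODE 44, LNCTAM34A at 9182214 and MIR34AHG at 9182392, so that the plus-strand start comes first and the 5′ ends overlap. This is a convergent arrangement. By the outermost gene starts alone, this pair is missed. In RefSeq the starts lie 134 bp apart. The promoter window of LNCTAM34A, 250 bases before to 50 bases after its RefSeq start, is printed because it holds a 20-base match to the p53 element, given in capitals (RefSeq, GRCh38.p14, plus strand, chr1:9181954-9182253):
LNCTAM34A: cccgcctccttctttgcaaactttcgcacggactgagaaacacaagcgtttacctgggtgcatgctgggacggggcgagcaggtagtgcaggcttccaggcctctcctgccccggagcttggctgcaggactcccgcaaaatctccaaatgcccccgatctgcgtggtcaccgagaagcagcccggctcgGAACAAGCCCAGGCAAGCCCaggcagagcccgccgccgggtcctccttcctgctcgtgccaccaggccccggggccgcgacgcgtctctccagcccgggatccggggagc

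The match covers 9182144 to 9182163, positions -60 to -41 from the RefSeq start of LNCTAM34A. Seen from MIR34AHG it lies downstream, between 175 and 194 bases past the RefSeq start of that gene. It falls in annotated exons of 4 of the 5 MIR34AHG transcripts and of 1 of the 6 LNCTAM34A transcripts. The window of MIR34AHG itself held no exact 10-base match. A match describes letters only and says nothing about binding in these cells.

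**Figure D3:**
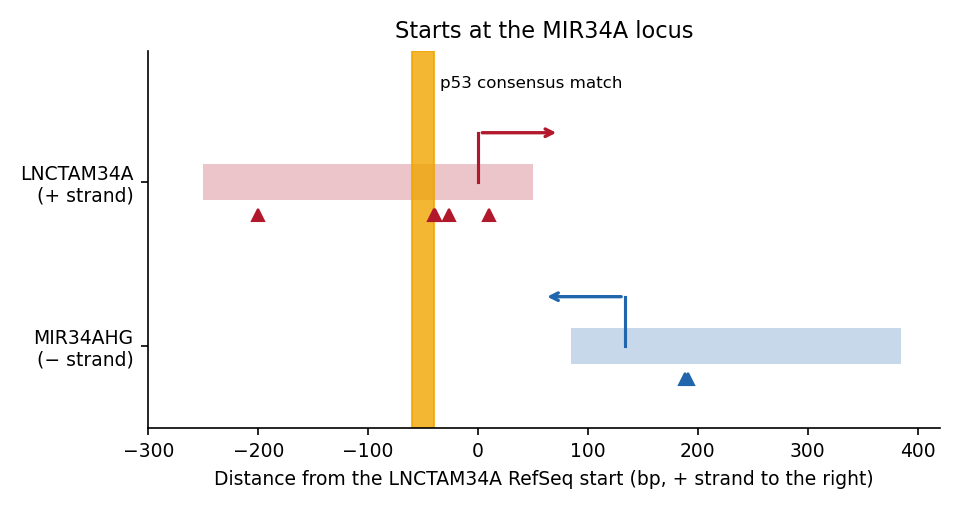
Layout of the MIR34A locus in bp from the RefSeq start of LNCTAM34A, with promoter windows as pale bars, RefSeq starts as arrows in the direction of transcription, starts annotated in GENCODE as triangles and the p53 consensus match in yellow. LNCTAM34A (red) and MIR34AHG (blue) point towards each other over 134 bp, and the match lies at -60 to -41 from the LNCTAM34A start.

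Sequences of microRNAs inside MIR34AHG and LINC-PINT are printed because both genes span them on their own strand. The miR-34a hairpin, at 9151668 to 9151777 on chromosome 1, lies within an exon of 1 annotated MIR34AHG transcript. LINC-PINT holds miR-29a and miR-29b on its own strand, and the miR-29b hairpin overlaps an exon of 1 transcript, while that of miR-29a lies in no annotated exon of LINC-PINT. Capitals mark the seed in these mature sequences from RefSeq (GRCh38.p14):
hsa-miR-34a-5p: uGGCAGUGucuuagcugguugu
hsa-miR-34a-3p: cAAUCAGCaaguauacugcccu
hsa-miR-29a-3p: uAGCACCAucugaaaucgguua
hsa-miR-29b-3p: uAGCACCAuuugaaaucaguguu

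The miR-29 arms shown share the seed AGCACCA, while that of miR-34a-5p is GGCAGUG. The MIR29A gene had a base mean of 3.27. The libraries count reads on exons of long RNA, so this value is no measure of the mature microRNA.

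LINC-PINT (ENSG00000231721), a p53-induced transcript known to work with the Polycomb complex, had the lowest level of the members on both scales. Its base mean of 173.9 gave rank 317 among lncRNA genes, next to LNCTAM34A at 316. It is annotated on the minus strand of chromosome 7 from 130791264 to 131110176, with 69 transcripts from 40 distinct starts. Per kb of exon union it had 6.37, the only member below the lncRNA median of 8.68 on that scale, and 27.1 per kb of its longest transcript. EZH2, the Polycomb methyltransferase that LINC-PINT is described to bind, stood at 95.4 per kb of exon union. The outermost start of LINC-PINT lies 80 bp inside the 5′ end of MKLN1, a protein-coding gene on the plus strand with a base mean of 1979, so that both run towards each other. At an internal start the lncRNA gene LINC00513 begins 198 bp away and runs apart from it, with a base mean of 30.0. A further listed lncRNA gene, ENSG00000271204, overlaps LINC-PINT on the same strand with a base mean of 43.2, and reads on shared bases of both could be split or lost in counting. Its table name, AC016831.4, shares a clone prefix with the lncRNA genes AC016831.1 and AC016831.6, which were counted separately, had base means of 215.2 and 179.5 and have no entry in GENCODE 44. Whether their exons belong to LINC-PINT in GENCODE 44 was not tested. If they do, 173.9 and 6.37 per kb would be too low. The place of LINC-PINT as lowest member and below the lncRNA median might then not hold.

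PURPL (ENSG00000250337), a p53-induced RNA described to lower p53 levels, had a base mean of 504 and rank 97 among lncRNA genes. It is annotated on the plus strand of chromosome 5 from 27217714 to 27497871, with 126 transcripts from 46 starts spread over 267.5 kb. Per kb of exon union it had 21.3, and 48.9 per kb of its longest transcript, the second lowest of the members on both scales. Annotated exons that the authors did not count would make these values too low, which was not tested. MYBBP1A, the p53-binding protein with which PURPL is described to associate, had 584 per kb of exon union. The RefSeq start of PURPL at 27472292 lies far inside the GENCODE span. Its window is printed because it also holds a 20-base p53 match in capitals (RefSeq, GRCh38.p14, plus strand, chr5:27472042-27472341):
PURPL: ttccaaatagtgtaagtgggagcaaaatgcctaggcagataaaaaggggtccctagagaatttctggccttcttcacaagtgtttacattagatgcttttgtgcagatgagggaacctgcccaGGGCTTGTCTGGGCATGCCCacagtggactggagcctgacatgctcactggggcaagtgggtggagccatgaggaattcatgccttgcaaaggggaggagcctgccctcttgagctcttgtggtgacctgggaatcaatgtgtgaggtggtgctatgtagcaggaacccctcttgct

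The PURPL match covers 27472165 to 27472184 and begins at position -127 from the RefSeq start. In GENCODE it lies within the introns of 8 of the 126 PURPL transcripts and touches no exon.

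LNCTAM34A and PURPL were the only members with an exact 10-base p53 consensus match among the 6 members with a promoter window in the RefSeq table, searched on both strands. A window with such a match was found for 8.06% of the 27305 genes with windows outside chromosome 8. In both members a pair of exact matches stood side by side with no base between. Exact pairs of this kind occurred in 6 of 35116 windows, a share of 0.0171%, and 2 of the 6 belong to LNCTAM34A and PURPL. By gene the share was 0.022% of 27305. This form of match was chosen after seeing the data, and both genes were picked for their p53 link, so these shares are no test. With up to 1 mismatch outside the core C and G, 4 of the 6 members had a 10-base match, against 50.1% of genes. TP53TG1 and MALAT1 had none even then. NEAT1 and PVT1 were not searched.

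TP53TG1 (ENSG00000182165), a p53 target gene, had a base mean of 465 and rank 106 among lncRNA genes. It occupies the minus strand of chromosome 7 from 87322943 to 87345560, with 23 transcripts whose 15 starts fall within 0.103 kb. Per kb of exon union it stood at 75.4, near LNCTAM34A with 81.2 and MIR34AHG with 93.4. It shares a divergent promoter region with CROT, the gene of a peroxisomal carnitine acyltransferase, which starts 104 bp away on the other strand and had a base mean of 524. YBX1, the RNA- and DNA-binding protein that TP53TG1 is described to bind, had 4091 per kb of exon union.

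Starts on the other strand within 2500 bp were counted for all members. With a start of any transcript allowed, 7 of 8 members had at least 1 such neighbour, and 5 of 8 had one with a base mean of its own. By outermost gene starts the number with any such neighbour was 3. NEAT1 had none by either definition. Convergent neighbours with a base mean were found for LNCTAM34A, MIR34AHG, LINC-PINT and MALAT1, and divergent ones for TP53TG1 and LINC-PINT. LNCTAM34A and MIR34AHG were counted here as neighbours of each other. A gene with many annotated starts, such as PVT1 with 132, has more places where a neighbour can be found. The share of all listed genes with such a neighbour was not computed and no test against other genes was made, so these counts only describe the members.

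Per kb of exon union, the ubiquitin ligase gene MDM2 stood at 5433 on the same pooled scale and CDKN1A, the cell-cycle inhibitor that p53 induces, at 21511. CDKN1A thus lay above MALAT1 at 10762, and MDM2 lay above every member other than MALAT1. Among 14 other noncoding RNAs linked to p53, 12 had a value here, with a median of 39.4 per kb against 87.3 for the members. They ran from 2.24 per kb for PANDAR, which starts near CDKN1A, to 1828 for NORAD, an RNA induced by DNA damage. DINOL, a damage-induced RNA of the CDKN1A locus, had 23.5 per kb, GAS5 had 844 and MEG3 had 37.3. A list of 11 widely expressed lncRNAs had a median of 147.7 per kb, above 6 members and below NEAT1 and MALAT1. By base mean the median of that list was 1721, which PVT1 exceeded with 3403, so the place of PVT1 turned with the scale. The lists overlap, since GAS5, NORAD, TUG1 and SNHG1 are held by both. TUG1, a noncoding RNA, is entered here as protein-coding.

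**Figure D4:**
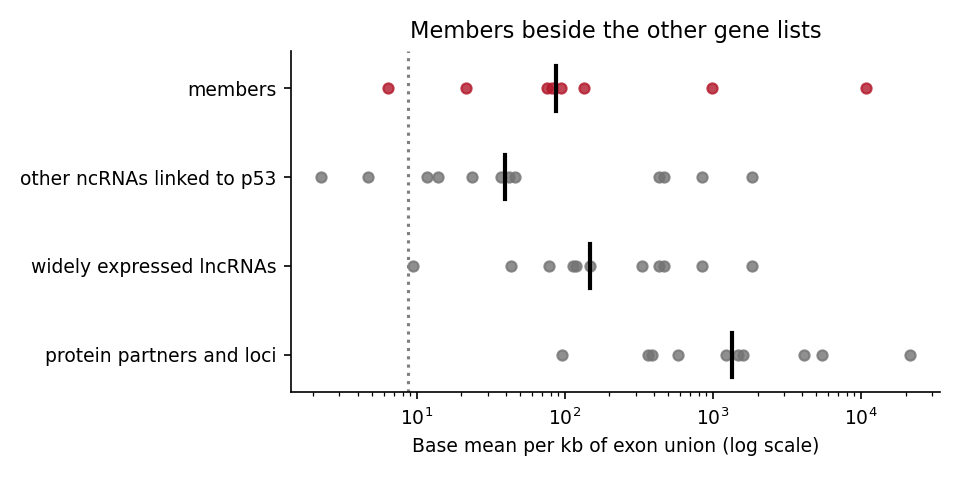
Base mean per kb of exon union on a log scale for the 8 members (red) and for 3 gene lists (grey), with black bars at each median and the median of all lncRNA genes dotted. The medians are 87.3 for the members, 39.4 for other p53-linked noncoding RNAs, 147.7 for widely expressed lncRNAs and 1351 for the 10 genes labelled protein partners and loci. Those 10 include MDM2 at 5433 and CDKN1A at 21511, the highest of that list. Both were added as p53 pathway genes and not as partners of a given member. GAS5, NORAD, TUG1 and SNHG1 appear both among the other p53-linked noncoding RNAs and among the widely expressed lncRNAs.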

How the data were processed

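RNA-seq of HCT116 and RPE-1 cells was deposited as 1 table per line. According to the study's methods, the authors mapped reads to hg38 (GRCh38) with Ensembl 102, counted unique reads on exons by strand and compared treatments with DESeq2. Those methods cover RPE-1 and do not mention HCT116. Tool versions given for these samples also differ in part from those of the methods. The labels describe ribosomal RNA depletion and the methods poly(A) selection. This bears on RNAs whose 3′ end carries no poly(A) tail, such as MALAT1. Which protocol applied, and whether it affects other members such as NEAT1, was not tested. The deposited signal, the base mean, is a mean of counts divided by size factors, and the libraries averaged are not given in the sources used here. The other 5 numeric columns of each table hold the authors' own comparison of Nutlin-3a with DMSO (log2 fold change, standard error, statistic and p-values) and were not used. Depth per library is therefore unknown, and no treatment effect was tested.

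Genes were ranked by base mean. Lengths and starts came from GENCODE 44, in which 25836 of 25914 identifiers were found, and which differs from the annotation counted by the authors. The effect of this difference on levels per kb was not tested for any gene. RefSeq promoter windows and microRNAs of GRCh38.p14 were searched for the p53 consensus. Chromosome 8 was left out of the sequence search. Functions were tested on simulated data. Named genes were the members, neighbours starting within 2500 bp on the other strand, lists of related genes and the nearest genes by base mean. One further gene chosen for the list of protein partners is not reported here, and the list is given without it. Members and lists were chosen with earlier results of these data known. Alternatives were other backgrounds for the ranks (base mean of at least 10, protein-coding, lncRNA), another length and other limits for the p53 match. Chosen after seeing the data were the ranks per kb, starts of any transcript and the exact paired match. Tables were handled with pandas 2.3.3 in Python 3.11.15 and plots drawn with matplotlib 3.10.9.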

Additional observations from a re-analysis of the deposited data

How the results depend on the processing

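Each member's share of listed genes with a lower base mean had a median of 67.5% over the 8 members. This median was 59.5% among genes with a base mean of at least 10, 49.6% among protein-coding genes, 98.6% among lncRNA genes and 58.1% when genes were ranked per kb, a ranking added after seeing the data. The background sets these values by construction. The median base mean per kb rose from 87.3 to 164.6 with the longest transcript in place of the exon union. The number of members with a p53 match was 2 for exact 10-base matches and 4 with 1 mismatch allowed. It was 2 for pairs of 10-base matches with up to 2 mismatches in all and up to 13 bases between them. Such a looser pair was found for 3.62% of the genes with windows. For exact pairs without a gap the number was again 2. No paired analysis was possible because the values used are 1 pooled mean per gene. Leaving out single replicates was not run for the same reason. The precision of each mean cannot be given without depth or values per library.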

Other observations

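The listed genes next to each member in base mean were mostly protein-coding. SSPN and DCLK2 lay around LNCTAM34A, ADGRL2 and PKIG around MIR34AHG, IQCB1 and the pseudogene AP002414.4 around PURPL, and SERPINA1 and the lncRNA OTUD6B-AS1 around TP53TG1. SLC22A31 and HYAL1 lay around LINC-PINT, and PTPN23 and SRPK1 around PVT1. NEAT1 stood between SPARC at 22588 and KRT80 at 22198, and MALAT1 between the elongation factor gene EEF2 at 115591 and the mitochondrial ribosomal RNA gene MT-RNR2 at 106687. These neighbours share a pooled count and nothing more was measured.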
